A study of Mus musculus with 4 samples.

Results

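Genes of sterol and fatty acid synthesis and of its regulation were followed in J558, a mouse plasmacytoma line of BALB/c origin, of which 4 clones were measured. The set held 32 genes, of which 31 had a probe set with a single gene symbol on the Affymetrix Mouse 430 2.0 array. Acat2 did not and has no value here. The 31 genes were covered by 71 probe sets, and each gene stands for the probe set with the highest mean log2(signal + 16) over the 4 arrays, among 18193 genes chosen in the same way. Of the 31, 29 lay in the upper 0.5 of probe sets by mean signal, above a mean signal of about 49.4, and entered the tests with 10474 genes in all. The 2 left out were Scd1 and Mylip.

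The 2 control clones carried an empty silencing vector and the 2 AID-silenced clones the same vector with a sequence against activation-induced cytidine deaminase (AID), a B cell enzyme that deaminates cytidines in antibody genes. All 4 clones also carried a neomycin resistance vector, had been selected with G418 and were grown in medium with fetal calf serum. The sample titles arrange them as pair 1 and pair 2, each made of 1 control clone and 1 silenced clone. Each clone was measured on 1 array, so a difference between groups and a difference between single clones rest on the same 4 values. The labels do not say that the clones of a group came from separate experiments, and p-values measure only the spread between these clones.

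Animal cells build cholesterol from acetyl-CoA through mevalonate, isoprenoid units, squalene and lanosterol. The enzymes of this route and those of fatty acid synthesis are under common control by the SREBP transcription factors (Srebf1, Srebf2), which are held in the endoplasmic reticulum by SCAP and the INSIG proteins when sterols are plentiful and are released when sterols are scarce. The liver X receptors (LXR) respond to oxysterols and drive export genes such as Abca1. Plasma cells enlarge their endoplasmic reticulum for secretion and need membrane lipid for it.

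Promoters are shown for 5 genes that were among the most different between the pairs and belong to different arms of the route. RefSeq promoter windows of 300 bases (assembly GRCm38.p6, 250 before and 50 after the annotated start) were at hand for 26 of the 32 genes. The 250 bases before the start are printed 5′ to 3′ on the gene's strand. Capitals mark CACCCCAC and CACGCCAC (cores of sterol regulatory elements), TCACNCCAC, which overlaps the first of these, the E-box CACGTG, and the CCAAT box, in either orientation, and a run of letters that Fasn and Abca1 share.
Hmgcs1, chr13:119690101-119690350, + strand: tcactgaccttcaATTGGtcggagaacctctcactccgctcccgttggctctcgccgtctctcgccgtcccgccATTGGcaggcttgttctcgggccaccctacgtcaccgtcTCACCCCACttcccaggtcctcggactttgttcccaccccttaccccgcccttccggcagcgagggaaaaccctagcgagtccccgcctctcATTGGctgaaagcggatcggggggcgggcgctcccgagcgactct
Idi1, chr13:8885356-8885605, + strand: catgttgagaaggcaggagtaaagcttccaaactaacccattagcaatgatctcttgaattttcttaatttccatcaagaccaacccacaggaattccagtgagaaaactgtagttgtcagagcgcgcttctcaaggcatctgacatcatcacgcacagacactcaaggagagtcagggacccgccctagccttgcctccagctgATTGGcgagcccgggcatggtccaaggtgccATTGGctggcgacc
Insig1, chr5:28071162-28071411, + strand: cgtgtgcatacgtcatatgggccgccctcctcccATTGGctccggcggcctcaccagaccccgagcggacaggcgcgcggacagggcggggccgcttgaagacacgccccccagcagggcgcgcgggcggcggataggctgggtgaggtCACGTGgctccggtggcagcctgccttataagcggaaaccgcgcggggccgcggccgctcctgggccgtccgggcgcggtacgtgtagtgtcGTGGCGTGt
Fasn, chr11:120824548-120824797, - strand: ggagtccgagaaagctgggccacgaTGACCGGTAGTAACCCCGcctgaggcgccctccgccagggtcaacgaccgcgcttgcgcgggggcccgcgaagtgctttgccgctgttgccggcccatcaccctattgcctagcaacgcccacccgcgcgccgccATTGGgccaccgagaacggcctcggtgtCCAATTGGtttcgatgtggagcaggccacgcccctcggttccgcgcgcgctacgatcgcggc
Abca1, chr4:53159896-53160145, - strand: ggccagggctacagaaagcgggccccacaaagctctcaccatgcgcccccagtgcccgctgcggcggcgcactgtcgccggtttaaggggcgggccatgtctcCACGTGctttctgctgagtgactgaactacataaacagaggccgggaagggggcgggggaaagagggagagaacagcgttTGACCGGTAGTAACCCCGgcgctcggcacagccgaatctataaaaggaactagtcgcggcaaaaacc

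The CCAAT box, the letters bound by NF-Y, a partner of SREBP, was in 20 of the 26 windows (76.9%), against 39.7% of the 8543 windows of tested genes and 37.9% of all 27025. GGGCGG, the GC box, was in 76.9% of the 26, against 65.7% of the windows of tested genes and 35.9% of all. CACCCCAC was in the windows of Hmgcs1 and Acat2 (7.69%, against 2.88% of tested genes and 2.77% of all) and CACGCCAC in those of Insig1 and Acat2 (7.69%, against 1.22% and 0.696%). TCACNCCAC was in that of Hmgcs1 (3.85%, against 1.09% and 1.22%). CACGTG was in 5 of the 26 (19.2%, against 10.7% and 7.24%), and the loose E-box CANNTG in 73.1% (62.5% and 72.1%). A match is a description of the letters and not a binding site.

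The longest run of letters shared by the windows of Abca1 and Fasn, TGACCGGTAGTAACCCCG, was 18 bases long, with its first base 67 bases before the start of Abca1 and 225 bases before that of Fasn. Searched on both strands, it was in no other of the 27025 windows (0.0074% in all). Its first part has the form of a DR4 element, a direct repeat of the kind that LXR and its partner RXR bind. The 2 genes were compared after their values had been seen. The 2 genes went in opposite directions between the pairs, as their signals below show.

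All arrays were scaled to a 2% trimmed mean of 500, with median signals between 52.7 and 54.9. The 8 plasma cell markers, among them Sdc1, Xbp1, Irf4 and Jchain, were all in the tested range, with signals between 814 and 38926. For 3 of them, Xbp1, Irf4 and Jchain, both clones of pair 2 lay above both of pair 1, by 0.36, 0.38 and 0.27 log2 units (limma adjusted p = 0.316, 0.320 and 0.337), the direction of most sterol enzymes below, and the other 5 overlapped. The part of these genes in the results was not tested. Of the markers of other cells, Cd8a, Csf1r, Cd68 and Col1a2 were in the tested range, with none of the 3 measured hepatocyte or the 3 measured adipocyte markers. The other macrophage markers Lyz2, Adgre1 and Itgam were not. Sterol and lipid genes are expressed in most cells, and in bulk RNA a smaller share of expressing cells and less RNA per cell cannot be told apart.

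The clones of pair 2 were compared with those of pair 1, a difference that is not one of AID silencing, since each pair holds a silenced and a control clone. Sterol synthesis enzymes were mostly higher in pair 2, Insig1 and Fasn were higher by about 2-fold, and Abca1 was lower by over 3-fold. No member passed the limma threshold (adjusted p under 0.05 over 22518 probe sets), and neither did any other gene (0% of genes higher and 0% lower). At an unadjusted p under 0.05, 7 members were higher (5.32% of all tested genes) and 2 lower (10.2%). In 17 of the 29 tested members both clones of pair 2 exceeded both clones of pair 1, or 58.6%, against 19.5% of all tested genes, and in 2 both were below, or 6.9%, against 29.3%. Among the 17 tested enzymes of sterol synthesis the counts were 12 and none, or 9 and none when a gene's probe sets were averaged. Their median difference was 0.42 log2 units, with 0.42 in the control clones and 0.42 in the AID-silenced clones, while the median of all tested genes was −0.07. The background depended on brightness: of the 3262 tested genes with a mean log2 value from 10 to 12, where 9 of the 17 enzymes lay, 22.4% were higher in pair 2 without overlap, with a median of −0.01, and 7 of the 9 enzymes were. Of the 3366 genes from 8 to 10, 12.1% were higher, with a median of −0.19, and 4 of 6 enzymes. Of the 1190 genes at 12 or above, 44.3% were higher, with a median of 0.15, and Fdps, the 1 enzyme there. The part of brightness in the difference was not tested. The members were chosen with earlier results of these data known, so these counts describe the set and test nothing.

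**Figure D1:**
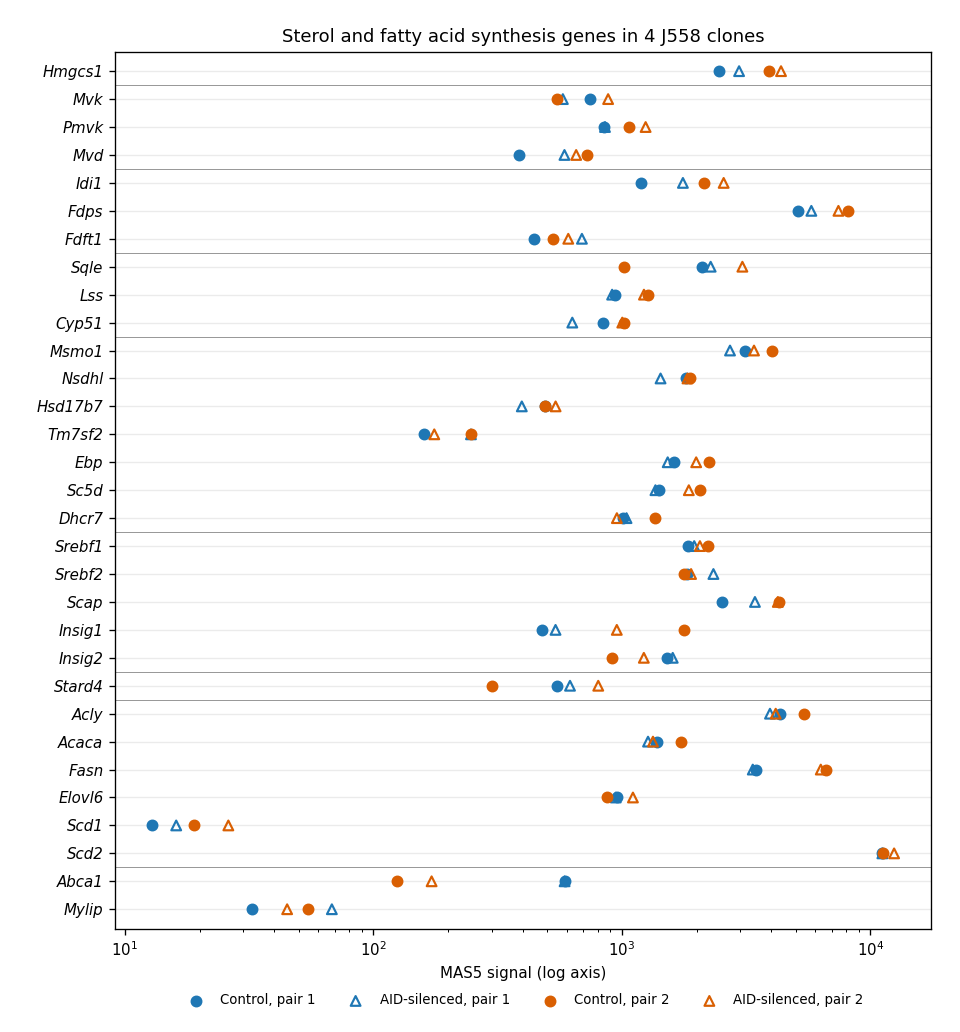
MAS5 signal (log axis) of the 31 measured genes in each clone, 1 point per array, with control clones as filled circles, AID-silenced clones as open triangles, pair 1 in blue and pair 2 in orange; lines separate the roles in the route. For Insig1, Fasn and Hmgcs1 both orange points lie to the right of both blue ones, and for Abca1 to the left, while for Sqle and Stard4 the control clone of pair 2 lies lowest.

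The route starts with Hmgcs1, the synthase that makes HMG-CoA. It had signals of 2458 and 2963 in the control and AID-silenced clones of pair 1 and 3908 and 4370.3 in those of pair 2. Both clones of pair 2 were above both of pair 1, by 1.53-fold (log2 difference 0.61 ± 0.18, SE, n = 2 per pair, limma adjusted p = 0.274). All 4 of its tested probe sets were higher in pair 2 in both groups, by 0.49 to 0.66 log2 units.

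Mvk, Pmvk and Mvd phosphorylate mevalonate and decarboxylate it. Mvd, the decarboxylase, had 384 and 588 in the control and AID-silenced clones of pair 1 and 723 and 655 in those of pair 2. Pmvk had 848 and 855 in pair 1 and 1064 and 1246.5 in pair 2. Both genes were thus higher in pair 2 without overlap, by 0.52 ± 0.26 and 0.43 ± 0.19 log2 units (SE, n = 2 per pair, limma adjusted p = 0.443 and 0.398). Mvk, the kinase of the first phosphorylation, overlapped, with 741 and 579 in pair 1 and 548 and 881 in pair 2.

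Idi1 interconverts the isoprenoid building blocks, Fdps joins them to farnesyl diphosphate and Fdft1 makes squalene. Idi1 had 1197 and 1761 in the control and AID-silenced clones of pair 1 and 2145 and 2569 in those of pair 2. It was 1.61-fold higher in pair 2 (log2 difference 0.69 ± 0.24, SE, n = 2 per pair, limma adjusted p = 0.324), and its second probe set was higher as well, by 0.66. Fdps had 5107 and 5788 in pair 1 and 8108 and 7439 in pair 2, with no overlap (0.51 ± 0.15, SE, n = 2 per pair, limma adjusted p = 0.274). Fdft1, the first enzyme committed to sterols, had 445 and 691 in pair 1 and 530.5 and 609 in pair 2, so that the pairs overlapped.

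Squalene is oxidised by Sqle, closed to lanosterol by Lss and demethylated by Cyp51. Sqle, a rate-controlling enzyme, had 2105 and 2277 in the control and AID-silenced clones of pair 1. In pair 2 it had 1017 in the control clone and 3055 in the AID-silenced clone. The 2 clones of pair 2 were thus the lowest and the highest of the 4, as they were for Mvk. Lss had 942 and 914 in pair 1 and 1272 and 1227 in pair 2, and Cyp51 had 838 and 632 against 1022.5 and 1004. Both lay higher in pair 2 without overlap, by 0.42 ± 0.18 and 0.47 ± 0.22 log2 units (SE, n = 2 per pair, limma adjusted p = 0.383 and 0.409). The second tested probe set of Lss was dim, with signals between 46.1 and 79.7, and overlapped between the pairs.

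The late steps were carried by 7 genes, of which 5 were higher in pair 2 without overlap. Sc5d, the lathosterol oxidase, had 1405 and 1365 in pair 1 and 2056 and 1860 in pair 2, and Ebp, the sterol isomerase, had 1615.5 and 1529 in pair 1 and 2239.9 and 1991 in pair 2. They differed by 0.49 ± 0.18 and 0.42 ± 0.18 log2 units (SE, n = 2 per pair, limma adjusted p = 0.329 and 0.372). Of the 3 tested probe sets of Sc5d, only the brightest separated the pairs, and the dimmest was lower in pair 2 on average, by −0.27. Msmo1, which removes the C4 methyl groups, had 3143 and 2724 in pair 1 and 4001 and 3403 in pair 2.

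Nsdhl and Hsd17b7, which act with Msmo1, separated the pairs by little. Nsdhl had 1805 and 1431 in pair 1 and 1885.5 and 1837 in pair 2. For Hsd17b7 the separation rested on control signals of 492 and 492.1, beside 396 and 541 in the AID-silenced clones of pairs 1 and 2. The dimmest of its 3 tested probe sets overlapped and was lower in pair 2 on average, by −0.09. The reductases overlapped: Dhcr7, which makes cholesterol from its last precursor, had 1012 and 1044 in pair 1 and 1355 and 955 in pair 2, and Tm7sf2, the C14 reductase, had 160.4 and 247 in pair 1 and 248 and 176 in pair 2.

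**Figure D2:**
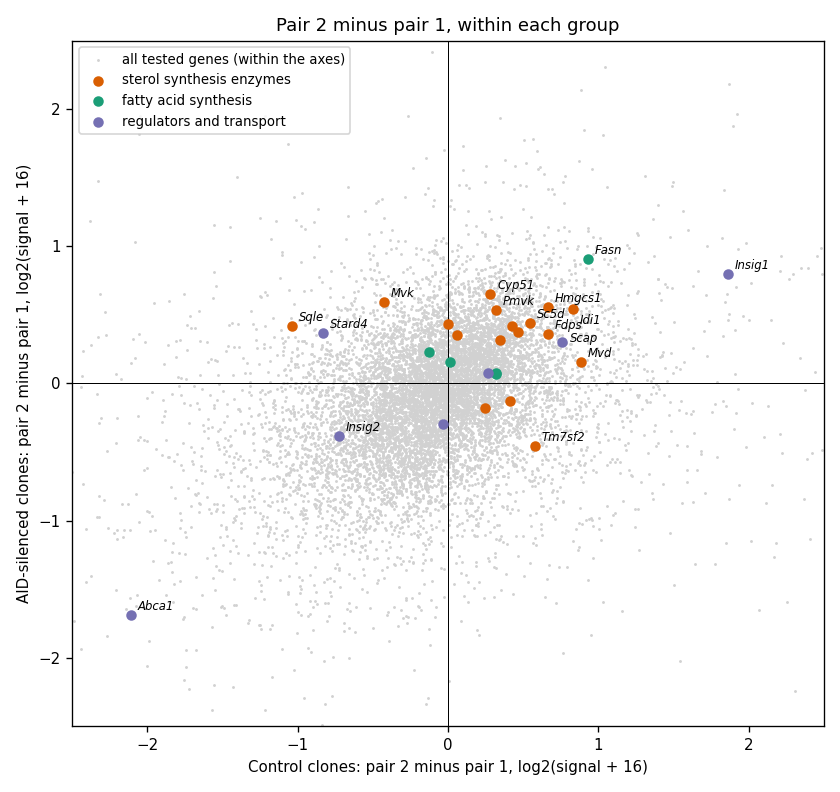
Difference of pair 2 minus pair 1 on the log2(signal + 16) scale in the control clones (x axis) and in the AID-silenced clones (y axis), for the 29 tested genes (coloured by role, named where a difference reaches 0.5) over all tested genes within the axes (grey). Points in the upper right are higher in pair 2 in both groups, such as Insig1, Fasn and Idi1; Abca1 and Insig2 lie in the lower left, and Sqle, Stard4 and Mvk in the upper left.

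Of the regulators, Insig1 differed most. INSIG1 retains the SCAP and SREBP complex in the endoplasmic reticulum and is itself a target of SREBP. Its signals were 477 and 541 in the control and AID-silenced clones of pair 1 and 1774 and 954 in those of pair 2. The pairs did not overlap, and the difference was 1.33 ± 0.32 log2 units (SE, n = 2 per pair, limma adjusted p = 0.252), with 1.86 in the control clones and 0.80 in the AID-silenced clones.

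Insig2, the paralog that does the same retention but is not driven by SREBP in the same way, lay in the opposite direction. Its signals were 1523 and 1602 in pair 1 and 913 and 1226 in pair 2, again without overlap (−0.56 ± 0.21, SE, n = 2 per pair, limma adjusted p = 0.345). All 3 of its tested probe sets were lower in pair 2 in both groups, by −0.74 to −0.48 log2 units on average.

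Scap, the sterol sensor that escorts SREBP, had 2533 and 3432 in pair 1 and 4289 and 4243 in pair 2, a difference of 0.53 ± 0.20 (SE, n = 2 per pair, limma adjusted p = 0.335). The SREBP genes themselves differed little. Srebf1 had 1842 and 1955 in pair 1 and 2213.5 and 2061 in pair 2, and Srebf2 had 1824 and 2336 against 1781 and 1899, so that Srebf2 overlapped. Stard4, a carrier of cholesterol between membranes and a target of SREBP2, had 547 and 619 in pair 1 but 301 in the control and 804 in the AID-silenced clone of pair 2, the same order of clones as Sqle.

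In fatty acid synthesis the difference between the pairs was largest for Fasn, the fatty acid synthase, which had 1 probe set. It had 3465.5 and 3364 in the control and AID-silenced clones of pair 1 and 6610.2 and 6316.5 in those of pair 2. The 2 clones within each pair were close together, and the pairs stood 1.89-fold apart (log2 difference 0.92 ± 0.15, SE, n = 2 per pair, limma adjusted p = 0.245). The steps before it were closer. Acly, which supplies acetyl-CoA from citrate, had 4315 and 3945.5 in pair 1 and 5394.5 and 4159.6 in pair 2, and Acaca, the carboxylase, had 1387 and 1275 against 1731 and 1334. In both, the AID-silenced clone of pair 2 lay below the control clone of pair 1. A dimmer probe set of Acaca separated the pairs, with 355 and 327 in pair 1 and 469 and 389 in pair 2.

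Elovl6, which elongates palmitate, had 955 and 945 in pair 1 and 874 and 1108 in pair 2 and overlapped. Its dimmer tested probe sets went in opposite directions, by 0.23 and −0.51. The desaturases Scd1 and Scd2 introduce the double bond of oleate. Scd2 had 11129 and 11176 in pair 1 and 11217.5 and 12461 in pair 2, a difference of 0.08 ± 0.12 (SE, n = 2 per pair, limma adjusted p = 0.795) whose direction turned under quantile normalisation (−0.10). Its second probe set overlapped (0.08). The third had 4300 and 4113 in pair 1 and 6237 and 4772 in pair 2, without overlap (0.37). Scd1 had signals of 12.9, 16.1, 19.0 and 26.1 in the control and AID-silenced clones of pair 1 and of pair 2, below the tested range and below 41.9, the highest signal of the bacterial control probe sets on these arrays.

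Abca1, the pump that exports cholesterol and is driven by LXR, had the largest difference of the set. It had signals of 591 and 588 in the control and AID-silenced clones of pair 1 and 125 and 172 in those of pair 2. Both clones of pair 2 were far below both of pair 1, by 3.73-fold (log2 difference −1.90 ± 0.26, SE, n = 2 per pair, limma adjusted p = 0.200). It was the 1 member at least 2-fold apart in both groups (1.58% of all tested genes were lower in this way and 0.267% higher). All 3 of its probe sets were lower in pair 2, by −1.90 to −1.50 log2 units on average.

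Abcg1, the other LXR-driven exporter and no member of the set, showed the same direction, with 1616 and 1166 in pair 1 and 415 and 422 in pair 2 (−1.68 ± 0.23, SE, n = 2 per pair, limma adjusted p = 0.203). Its second probe set was dimmer, with signals between 52.2 and 244, and was lower in pair 2 by −0.61 in the control and −1.34 in the AID-silenced clones. Mylip, an LXR target that degrades lipoprotein receptors, had 32.6 and 68.1 in pair 1 and 54.8 and 45.0 in pair 2. It lay just below the tested range. Other genes listed with the LXR axis did not share the large fall. Nr1h3, with low signals of 61.1 and 103 in pair 1 and 95.2 and 92.4 in pair 2, overlapped (0.20 ± 0.35, SE, n = 2 per pair, limma adjusted p = 0.831). Lpcat3 had 1847 and 1958 in pair 1 and 1804 and 1723 in pair 2 (−0.11 ± 0.17, SE, n = 2 per pair, limma adjusted p = 0.810). Macrophages express both exporters strongly. The summed signals of the 5 macrophage markers were 1171 and 1188 in pair 1 and 1062 and 1006 in pair 2. Both in the tested range separated the pairs, Csf1r higher in pair 2 (213 and 232 against 268 and 293) and Cd68 lower (866 and 841 against 721 and 572), and their part in the difference of Abca1 and Abcg1 was not tested.

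**Figure D3:**
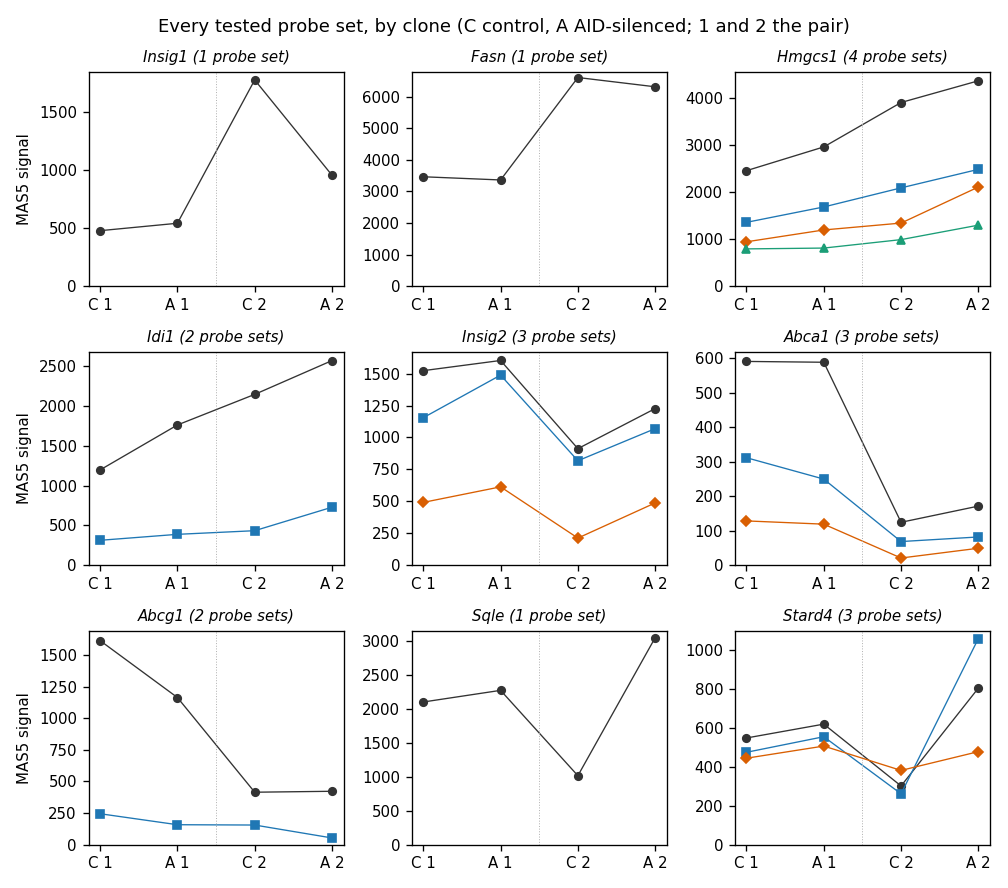
MAS5 signal (linear axis from 0) of every tested probe set of 9 genes in the 4 clones, in the order control and AID-silenced clone of pair 1, then control and AID-silenced clone of pair 2; lines join the values of a probe set for reading only. The probe sets of Hmgcs1, Idi1, Insig2 and Abca1 separate the pairs in 1 direction each, and Sqle and Stard4 are lowest in the control clone of pair 2.

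The comparison that the study was built for, AID-silenced against control clones, gave no shift of the set. None of the 29 tested members passed the limma threshold, where 0.00955% of tested genes were higher and 0.00955% lower, and their adjusted p was 0.9996 throughout. At an unadjusted p under 0.05 no member was higher (2.22% of all tested genes) and none lower (1.66%), and none reached 2-fold with a common sign in pair 1 and pair 2 (0.563% of all tested genes higher and 0.449% lower). The median difference of the members was 0.06 log2 units, with 0.01 in pair 1 and −0.03 in pair 2, against −0.005 for all tested genes. For 27 of the 29 the difference was smaller than 0.5. Some members had the same sign in both pairs although the groups overlapped, in either direction. Hmgcs1 (0.27 in pair 1 and 0.16 in pair 2) and Idi1 (0.55 and 0.26) were examples of higher ones. Msmo1 (−0.21 and −0.23) and Ebp (−0.08 and −0.17) were examples of lower ones. Both AID-silenced clones exceeded both control clones in 4 members (13.8%, against 14.3% of all tested genes) and lay below both in 2 (6.9%, against 14.4%).

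The 4 members above were Sqle, Stard4, Fdft1 and Srebf2. Sqle had the largest difference, 0.84 ± 0.37 log2 units (SE, n = 2 per group, limma adjusted p = 0.9996), but it was 0.11 in pair 1 and 1.57 in pair 2. Stard4 gave 0.77 ± 0.36 (SE, n = 2 per group, limma adjusted p = 0.9996), with 0.17 in pair 1 and 1.37 in pair 2. In both genes the control clone of pair 2 was the lowest of the 4 and the AID-silenced clone of pair 2 the highest. Without the control clone of pair 2 the difference was 0.32 for Sqle and 0.36 for Stard4. All 3 probe sets of Stard4 were higher in the AID-silenced clone of each pair, by 0.25 to 1.09 on average. At the dimmest of them the AID-silenced clone of pair 1 was the highest, and the differences were 0.18 in pair 1 and 0.31 in pair 2. Fdft1 gave 0.62 in pair 1 and 0.19 in pair 2, and its second tested probe set gave 0.03 on average. With the mean of all 4 of its probe sets its difference of 0.40 turned to −0.35. That mean takes in 2 dim probe sets below the tested range, which gave −0.93 and −0.88.

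Srebf2 gave 0.35 in pair 1 and 0.09 in pair 2, and both of its probe sets were higher in both pairs. The 2 members below were Acly and Acaca, by −0.25 ± 0.21 and −0.25 ± 0.23 (SE, n = 2 per group, limma adjusted p = 0.9996). They gave −0.13 and −0.12 in pair 1 and −0.37 and −0.37 in pair 2, and all 3 tested probe sets of Acly and both of Acaca were lower in each pair. The genes that stood farthest apart between the pairs differed little or in opposite directions here: Abca1 gave −0.01 in pair 1 and 0.42 in pair 2, Fasn −0.04 and −0.07, and Insig1 0.18 and −0.88. With 3 clones fewer values have to separate, and the counts of members above and below depended on the clone dropped. They were 8 and 16 of 29 on dropping the control of pair 1, where 36.1% of all tested genes were above and 32% below. They were 14 and 3 on dropping the control of pair 2, where the shares were 28.9% and 33.7%. Dropping the silenced clone gave 11 and 3 for pair 1, against 27.9% and 33.8%, and 5 and 10 for pair 2, against 35.1% and 29.9%. The members' median was −0.17, 0.17, 0.13 and −0.13 in the same order.

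**Figure D4:**
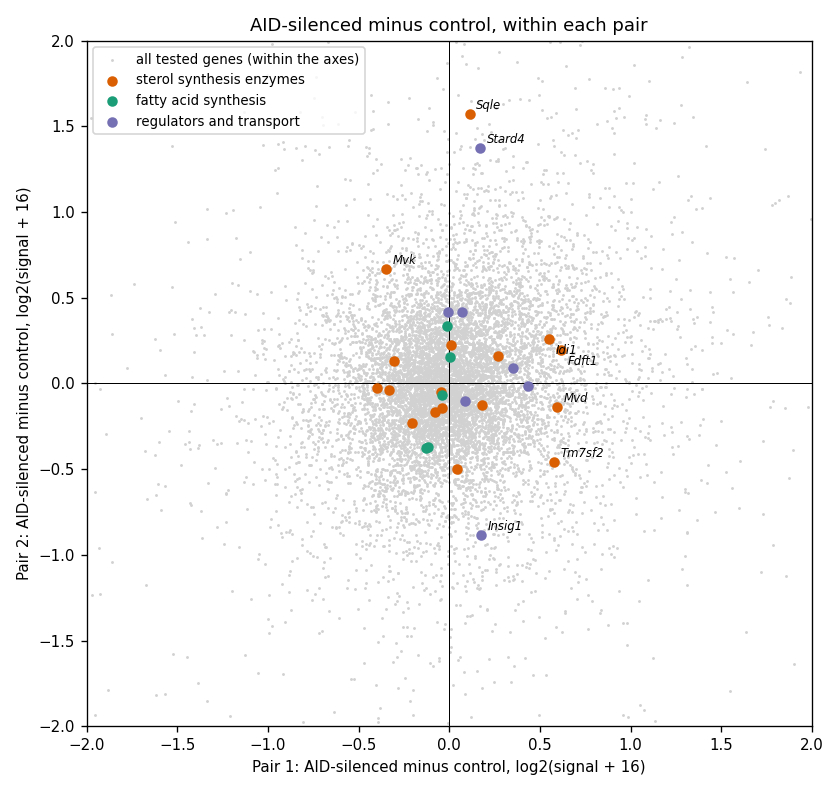
Difference of AID-silenced minus control clone on the log2(signal + 16) scale in pair 1 (x axis) and pair 2 (y axis), for the 29 tested genes (coloured by role, named where a difference reaches 0.5) over all tested genes within the axes (grey). Most members lie near the origin; Sqle and Stard4 stand above it at 1.57 and 1.37 in pair 2, and Insig1 below it at −0.88.

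Of 54 other genes of sterol and fatty acid metabolism, 47 were measured and 39 tested, and 0 of the 39 passed the limma threshold in either comparison. At an unadjusted p under 0.05, 4 of the 39 were higher in pair 2 (10.3%, against 5.32% of all tested genes) and 5 lower (12.8%, against 10.2%). Between AID-silenced and control clones none was higher (2.22% of all tested genes) and none lower (1.66%). Between the pairs, 9 of the 39 were higher in pair 2 without overlap (23.1%) and 13 lower (33.3%), with a median of −0.14 log2 units. Over all tested genes the shares were 19.5% and 29.3%. Acss2, which makes acetyl-CoA from acetate, had 365 and 267 in pair 1 and 571 and 446 in pair 2 (0.67 ± 0.27, SE, n = 2 per pair, limma adjusted p = 0.356). Only 2 of its 3 probe sets had this direction. Agpat2, an acyltransferase of phospholipid and triglyceride synthesis, had 878 and 582 in pair 1 and 319 and 404 in pair 2. Ubxn8 had 756 and 466 in pair 1 and 1076 and 1148 in pair 2. Apoe, a lipoprotein component, had low signals of 67.3 and 11.5 in pair 1 and 138 and 105 in pair 2.

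Between AID-silenced and control clones, 5 of these 39 genes were higher without overlap and 4 lower, or 12.8% and 10.3%, against 14.3% and 14.4% of all tested genes, with a median of 0.00 log2 units. The genes named here were those with the largest differences of the same sign in both pairs, not ones called. Npc1, which moves cholesterol out of lysosomes, went from 468 in the control to 1104 in the silenced clone of pair 1 and from 385 to 530.2 in pair 2 (0.83 ± 0.39, SE, n = 2 per group, limma adjusted p = 0.9996). Mbtps1, the protease that makes the first cut in SREBP, had 1316.5 in the control clone of pair 1 and between 2661 and 2881 in the other 3 clones. Its difference was 1.12 in pair 1 and only 0.07 in pair 2. Its dimmer probe sets changed sign, with 1.01 and 2.28 in pair 1 and −0.22 and −0.18 in pair 2. Of the 39 genes, Apoe had the largest difference among those lower in both pairs, −0.97 ± 0.73 (SE, n = 2 per group, limma adjusted p = 0.9996), with −1.60 in pair 1 and −0.34 in pair 2. Stard5, a sterol-binding protein, was lower in both AID-silenced clones at all 3 of its tested probe sets, the brightest giving 6625.5 against 5117 in pair 1 and 5949 against 3281 in pair 2. Elovl5, which elongates polyunsaturated fatty acids, gave 4907 in the control against 4173 in the silenced clone of pair 1, and 7514 against 4440 in pair 2.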

How the data were processed

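RNA of 4 clones (Trizol) was labelled as biotin cRNA and put on 1 array each, per the labels' protocols. Each probe set has 1 deposited linear intensity, which the authors computed by MAS5, as the submitters' processing notes state. This software scales each array globally, so a change of all genes would not be seen, and its signals of dim probe sets vary strongly. Its version is not given in the sources used here.

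From these, log2(signal + 16) was computed, which understates differences of dim genes. Of 45101 probe sets, 64 controls were left out and the 22518 in the upper 0.5 by mean log2 value were fitted with limma 3.58.1 (statmod 1.5.0, R 4.3.3; lmFit, eBayes with trend and robust prior), once by group and once by pair, with Benjamini-Hochberg adjustment over all of them. A single symbol was listed in the platform annotation for 34945 probe sets, several for 932 and none for 9160, and those with several were named for no gene. Each printed difference is on this log2 scale, and groups overlap where the lower clone of one does not exceed the higher clone of the other. The fits were tested on simulated data. Promoters come from RefSeq, where a gene with several windows stands for the first listed. Figures were drawn with matplotlib 3.10.9.

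The members and lists were chosen with earlier results of these data known. Of the other genes of the pathway, those that reached 2-fold with a common sign in both pairs or groups and the 3 largest mean differences in each direction with the same sign in both were named. Nr1h3 and Lpcat3, of the LXR axis, were added after the values were seen. The alternatives tried were median scaling, quantile normalisation, pseudocounts (1 or 64), no filter, a stricter filter (upper 0.3), the mean of a gene's probe sets, a prior without trend, the pair or group as a block, and each clone left out. The level of the silenced gene is not reported here, and 0 columns of values were left unused. Bands of mean log2 value (8, 10, 12) were added after the values were seen.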

Additional observations from a re-analysis of the deposited data

Results flagged for a closer look

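Some genes moved in opposite directions in the 2 pairs, or in the 2 groups, and were over 2-fold apart in that respect. With 1 clone for each combination the difference between the 2 effects was not tested. The effect of AID silencing in pair 2 minus that in pair 1, which equals the pair effect in AID-silenced minus that in control clones, was 1.02 log2 units for Mvk, −1.03 for Tm7sf2 and −1.06 for Insig1, whose AID-silenced clone was above its control in pair 1 and below it in pair 2. The same quantity was 1.46 for Sqle and 1.20 for Stard4, where pair 2 was below pair 1 in the control clones and above it in the AID-silenced clones. At the dimmest probe set of Stard4 it was 0.13. It was −1.05 for Mbtps1, where the control clone of pair 1 was the lowest at all 3 probe sets.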

How the results depend on the processing

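No member passed the adjusted threshold in either comparison under any of the 13 alternatives. For single genes, 872 recomputed differences for AID silencing and 857 between the pairs moved by less than the spread between replicates, 6 and 21 by more, and 1 and 1 newly passed the threshold, both for Scarb1 where the control clone of pair 2 alone stood for its arm. With 1 clone left out, the lone clone of an arm is assumed to vary like the other clones, and such calls compare that clone. For AID-silenced against control clones, 2 probe sets of 22518 were called, 0 with the mean of probe sets, 0 with the plain prior and 0 to 146 with 1 clone left out (146 without the control clone of pair 1, 52 without that of pair 2). The AID-silenced against control clones median of tested sterol enzymes, 0.03, was 0.0655 when a gene's probe sets were averaged and −0.00943 under the stricter filter, and ranged from −0.22 to 0.18 with 1 clone left out. That of all members then ranged from −0.17 to 0.17, members above without overlap from 5 to 14 and those below from 3 to 16. For pair 2 against pair 1 clones, 0 probe sets were called and 0 to 59 with 1 clone left out. The members' median, 0.21, was 0.24 with median scaling and 0.23 to 0.38 with 1 clone left out, and the sterol enzymes' median, 0.42, was 0.41 with quantile normalisation, 0.45 with median scaling, 0.43 and 0.40 with pseudocounts of 1 and 64, 0.36 when probe sets were averaged and 0.35 to 0.45 with 1 clone left out. Members higher in pair 2 without overlap numbered 15 to 21 over all alternatives, against 18.6% to 33.4% of all tested genes. They numbered 19 to 21 with 1 clone left out, where that share was 30.6% to 33.4%, since fewer values have to separate. Those lower numbered 2 to 7 with 1 clone left out, against 41.6% to 43.9% (4 without the control clone of pair 1, 7 without the AID-silenced clone of pair 2). Sterol enzymes higher without overlap fell from 12 to 9 of 17 when probe sets were averaged, against 19.1% of all tested genes. Cyp51, Msmo1 and Sc5d then overlapped, and for Cyp51 and Msmo1 that mean takes in a probe set below the tested range.

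The labels number the clones as pairs but do not say what the clones of a pair share. Across tested probe sets, which are not independent, the pair difference in control clones had r = 0.306 and rho = 0.336 with that in silenced clones. With the pair as a replicate block the comparison of AID-silenced with control clones called 8 probe sets, and with the group as a term the comparison of pairs called 4; no member was among them, and the lowest adjusted p of a member was 0.103, for Abca1 between the pairs. With 2 arrays in each group the spread is poorly known, and dim probe sets such as those of Scd1 and Mylip give no usable difference.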

Other observations

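Scarb1, which encodes the HDL receptor SR-BI that takes up cholesterol esters, had a signal of 63.3 in the control clone of pair 2 and 1100 in the control clone of pair 1, beside 1461 and 1017 in the AID-silenced clones of pairs 1 and 2. Its other 2 tested probe sets showed the same, with 10.4 and 21.7 in the control clone of pair 2 and between 247 and 469.5 in the other 3 clones. Sqle and Stard4 were also lowest in that clone, at signals of 1017 and 301. So were Mvk, Srebf2, Insig2, Elovl6 and Abca1 among the tested members, and the share of all tested genes lowest there was not counted. The effect of AID silencing on Scarb1 was 0.40 log2 units in pair 1 and 3.70 in pair 2 (2.05 ± 1.18, SE, n = 2 per group, limma adjusted p = 0.9996). With the control clone of pair 2 left out it was 0.15.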
